A study of Bos taurus with 12 samples.

Results

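LTF, RPRM, MEST, RASL11B and DDO are 5 genes with lower signals in granulosa cells of large than of small bovine antral follicles. They were selected on the signals of large and small granulosa and taken by symbol from the platform annotation, as 5 of 9155 named genes, with 10 of the 24016 probe sets that are no controls. Their symbols stood among the 6 largest falls of large against small granulosa that passed limma's test with arrays that did not overlap, so the difference between these 4 arrays chose them and is described here without a test. Total RNA was labelled with biotin and hybridised to the bovine array of Affymetrix, which gives a single signal per probe set. Cells came from the ovaries of young, nonpregnant, cycling heifers, untreated and in the follicular stage. There were 6 groups of 2 arrays: granulosa cells of small (up to 5 mm), medium (5 to 10 mm) and large (over 10 mm) follicles, and theca cells of the same 3 sizes. Each RNA sample pooled the cells of 20 to 40 follicles, per the labels' extract protocol, whereas the design text gives 20 to 40 ovaries from 6 to 10 animals. The design text calls the replicates biologically separate. Pools hide the spread between animals, so p-values measure the spread between pools only.

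Granulosa cells line the inside of the follicle around the oocyte, and the theca forms the vascular, androgen-making wall outside a basement membrane. As an antral follicle grows, granulosa cells slow their division, take up gonadotrophin signals and become the main source of oestradiol. The 5 genes do not form a known pathway. LTF encodes lactoferrin, a secreted iron-binding glycoprotein of the transferrin family that is stored in neutrophil granules and made by many epithelia, and that is known as an oestrogen-responsive gene of the mouse uterus. RPRM encodes reprimo, a small glycoprotein induced by p53 that arrests cells before mitosis. MEST, also known as PEG1, is an imprinted gene expressed from the paternal allele in human and mouse and encodes a protein of the alpha/beta hydrolase fold. RASL11B encodes a small GTPase of the Ras family that lacks the lipid anchor typical of Ras. DDO encodes D-aspartate oxidase, a peroxisomal flavoenzyme that breaks down D-aspartate.

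The description field names theca cells for every sample, so the titles were set against markers of both layers. Of 15 granulosa markers 6 were higher on every granulosa than on every theca array, and of 9 theca markers 6 were higher on every theca array, while the others overlapped. Among the overlapping ones CYP19A1, the oestrogen-making enzyme of granulosa cells, read 1633 and 4279 in large theca. CYP17A1, the androgen-making enzyme of the theca, read 26.5 to 227.7 on granulosa arrays and 1786 to 5782 on theca arrays. KRT18, a keratin of granulosa cells, read 801.1 to 5964 on granulosa arrays and 56.7 to 292.5 on theca arrays. There were 2 unusual arrays. The median signal of granulosa large replicate 1 was 48.7, where the other 11 ran from 33.6 to 39.1, and its actin probe sets gave 21.0 as the ratio of 3' over 5' end. That actin ratio was 11.2 on theca small replicate 1 and 2.39 to 7.57 on the other arrays. Theca small replicate 1 had a GAPDH ratio of 3' over 5' end of 8.36, against 0.984 to 1.30 elsewhere. A high ratio is a sign of shortened RNA, seen on actin and GAPDH in theca small replicate 1 and on actin alone in granulosa large replicate 1. Values without these arrays are given where they differ.

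On the brightest probe set of each of the 5 genes the 2 small granulosa arrays ranked 1 and 2 of 12. The small and large granulosa arrays chose the genes, so part of this order was set in advance. The share of all probe sets with this order was not counted. Changes are differences of log2(signal + 16) with the standard error (SE) of a limma model over 17236 tested probe sets and n = 2 arrays per group. The added 16 understates the folds of dim genes. Over the 5 genes the median log2 change of large against small granulosa was -2.62, against 0.04 over all tested probe sets. In that comparison 69 probe sets were called lower, 0.4% of those tested, and since it chose the genes nothing is read from their count. Among the named falls the last of the chosen genes was DDO, at -2.42, and the next below it was NUDT11, at -2.28. MYH11, a smooth muscle myosin, ranked between RPRM and MEST at -2.83 and is not among the 5. In bulk samples fewer cells of a type and less RNA per cell cannot be told apart.

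**Figure D1:**
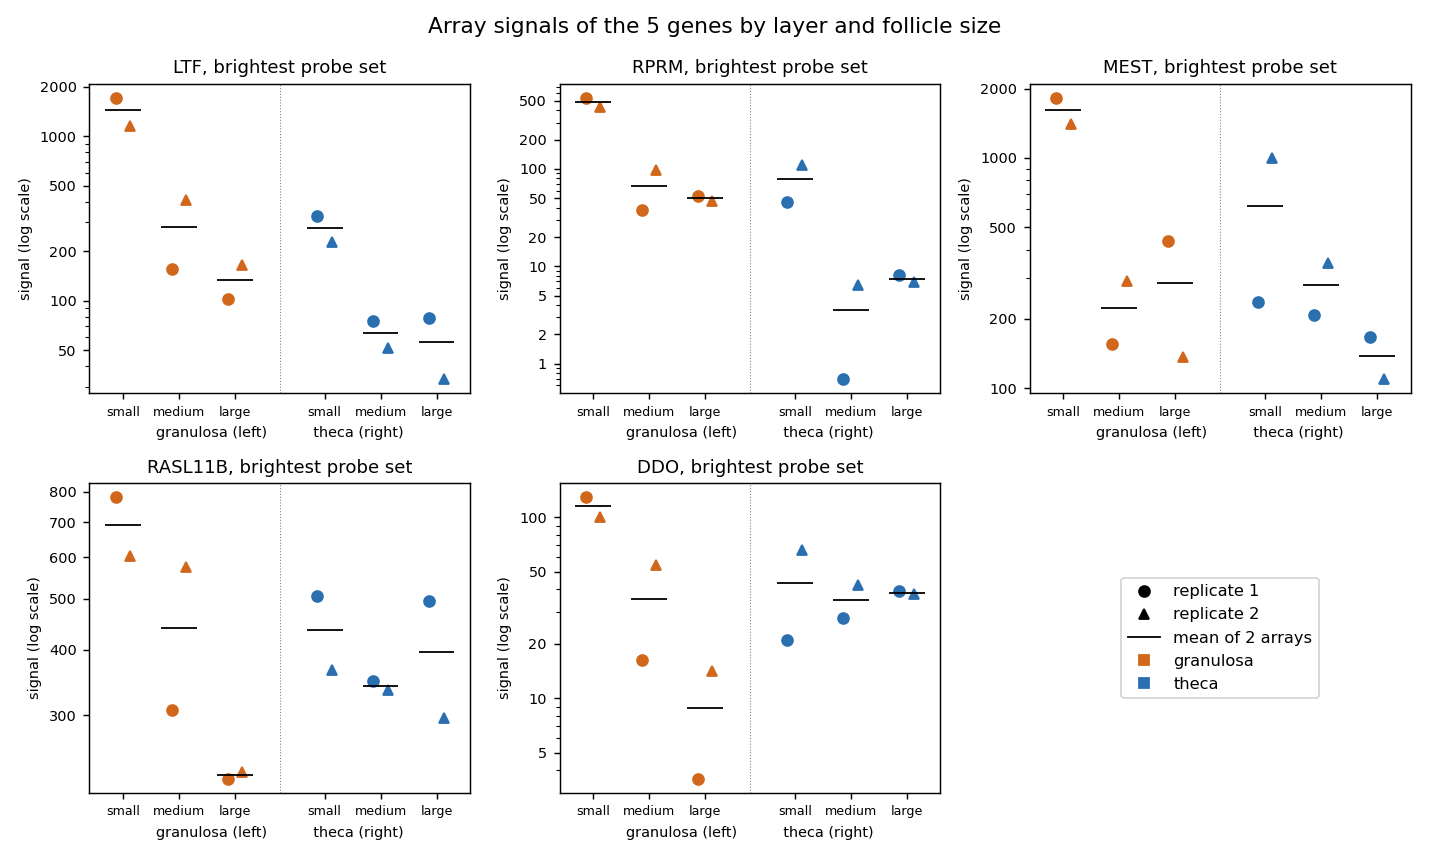
Array signals (log scale) of the brightest probe set of LTF, RPRM, MEST, RASL11B and DDO in granulosa (orange) and theca (blue) by follicle size, with a point per array and a line at the mean of the 2 arrays. In every panel the 2 small granulosa arrays, which took part in choosing the genes, are the highest of the 12.

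LTF had the largest difference. Its brightest probe set read 1713 and 1154 in small, 154.8 and 407.8 in medium, and 102.2 and 163.7 in large granulosa. The signal averaged 1434 ± 396 in small, 281.3 ± 179 in medium and 133 ± 43.5 in large granulosa (SD, n = 2 each). Both medium arrays lay below both small arrays, and the medium arrays overlapped the large ones. The log2 change was -3.29 ± 0.46 for large against small, a 9.76-fold lower value. It was -2.40 ± 0.46 for medium against small and -0.88 ± 0.46 for large against medium. The medium size had thus reached 73.1% of the log2 change between the ends. A second probe set of LTF did not pass the filter on low signals, with 6.9 to 19.7 in granulosa and 1.0 to 26.2 in theca.

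LTF is also a neutrophil granule gene. Part of a list named for such genes, which also holds genes of myeloid cells more widely, went the opposite way in large granulosa. The 16 other genes of the list on the array summed to 2640 and 2935 in large granulosa, against 197 and 244 in small granulosa. Most of the sums in large granulosa came from S100A12, S100A8, FCN1 and S100A9, so they do not measure granule genes alone. Of the 11 tested, 5 were called higher (1.82% of all probe sets) and 0 lower (0.4%) in large than in small granulosa. The 5 were S100A8, S100A9, S100A12, FCN1 and MMP9. S100A8, a calcium-binding protein of myeloid cells, read 931.8 and 519.8 in large granulosa against 41.7 and 29.2 in small granulosa. CAMP, whose product shares granules with lactoferrin, read 1.4 to 11.9 over the 12 arrays, and the elastase gene ELANE 1.0 to 23.7. Other genes of the list were brighter in places. CATHL5, a cathelicidin, read 270.7 and 66.1 in small, 27.4 and 43.2 in medium, and 15.8 and 5.1 in large theca, and 2.1 to 29.8 in granulosa. Its large against small theca difference was -2.57 (adjusted p = 0.143, limma), in the same direction as that of LTF. Most of the list went the other way there. Of the 11 tested, 7 were higher and 4 lower in large than in small theca, with a median of 0.25 and 0 called. The 270.7 came from theca small replicate 1, 1 of the 2 unusual arrays. The part of neutrophils in the LTF signal was not tested.

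Most of the difference in RPRM lay between small and medium follicles. Its single probe set read 539.9 and 438.0 in small, 38.1 and 97.1 in medium, and 52.8 and 46.8 in large granulosa. The small arrays stood clear of the other 4, while both large arrays lay between the 2 medium arrays. Its log2 change was -2.93 ± 0.41 for large against small (7.64-fold) and -2.68 ± 0.41 for medium against small. Large against medium gave -0.25 ± 0.41, and 0.28 without granulosa medium replicate 2. At the medium size 91.4% of the change between the ends had been reached.

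MEST followed the same course on its brightest probe set. This read 1828 and 1406 in small, 155.8 and 291.7 in medium, and 437.0 and 136.9 in large granulosa. The small arrays stood well above the rest, and the large arrays spanned the medium ones. Its log2 change was -2.62 ± 0.61 for large against small, -2.82 ± 0.61 for medium against small and 0.19 ± 0.61 for large against medium. The larger of the 2 large signals came from replicate 1, 1 of the 2 unusual arrays. Without that array the change was -3.40 for large against small and -0.59 for large against medium.

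The 4 probe sets of MEST differed in course and brightness. The third by brightness matched the first, with 300.8 and 307.9 in small, 33.5 and 70.9 in medium, and 51.8 and 36.2 in large granulosa (large against small -2.43 ± 0.70). The second by brightness differed less, with 190.4 and 144.4 in small, 118.2 and 186.4 in medium, and 82.2 and 80.6 in large granulosa. There the medium arrays overlapped the small ones and stood above the large ones. Its log2 changes were -0.90 ± 0.31 for large against small, -0.14 ± 0.31 for medium against small and -0.76 ± 0.31 for large against medium. The dimmest passed the filter through small theca alone, with 19.7 and 2.6 in small granulosa and at most 2.3 in medium and large granulosa. Whether the probe sets match different transcripts was not tested.

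**Figure D2:**
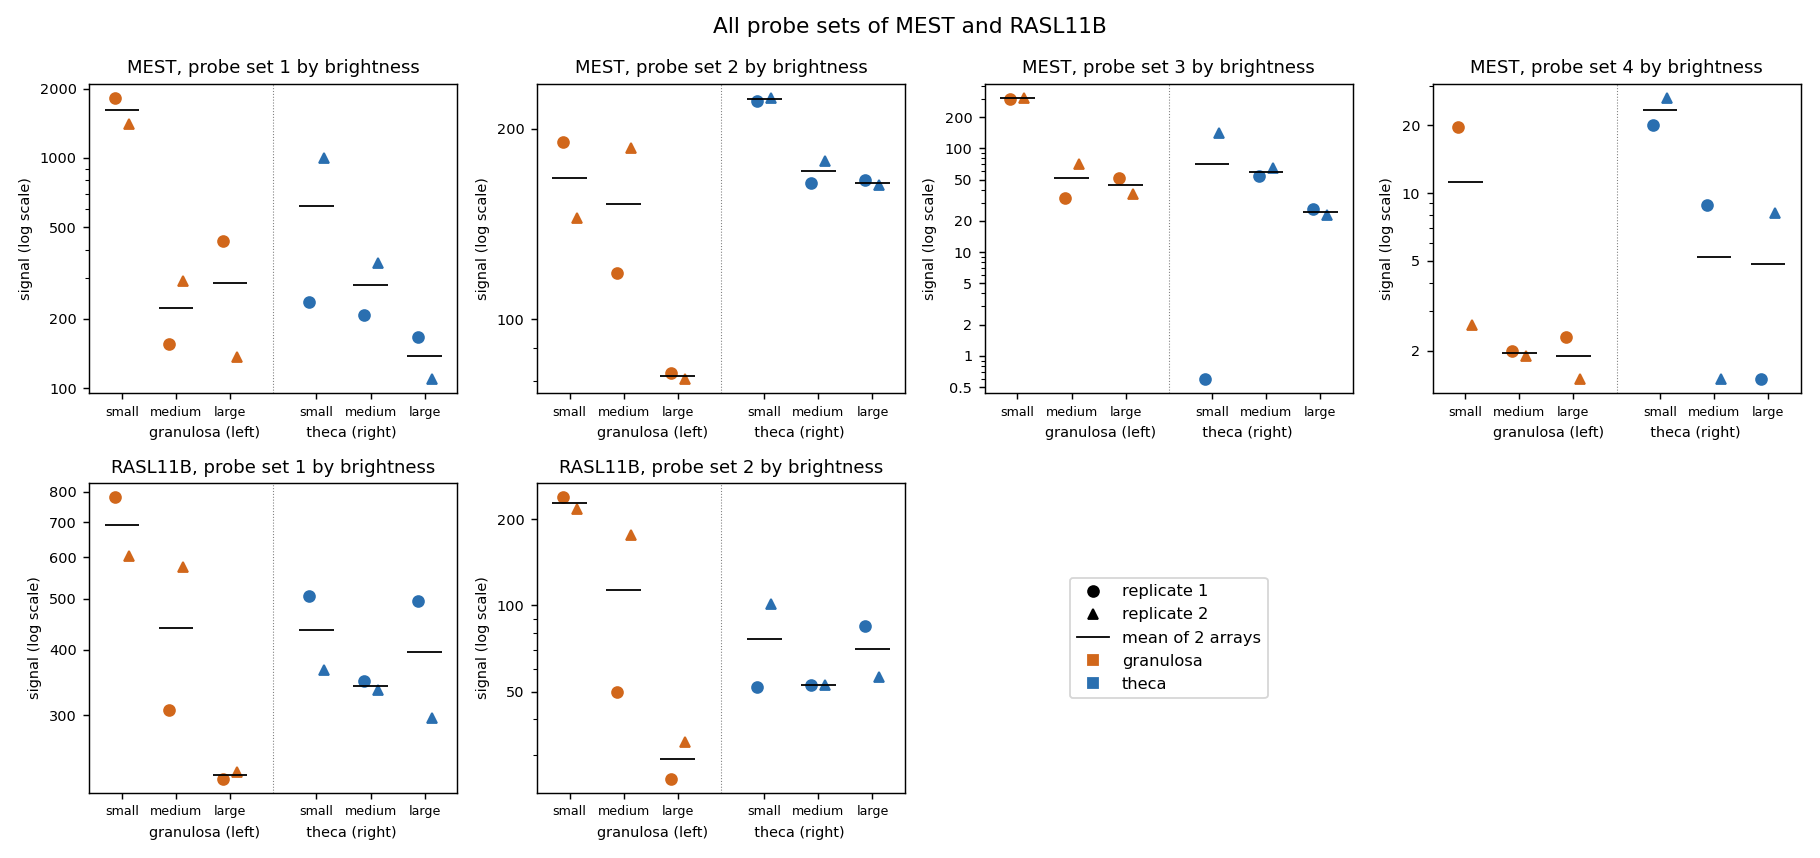
Signals (log scale) of the 4 probe sets of MEST and the 2 of RASL11B, numbered by brightness, with a point per array and a line at the mean of 2. MEST probe sets 1 and 3 were lower in medium than in small granulosa, whereas probe set 2 was lower in large granulosa only (82.2 and 80.6).

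RASL11B was lower at both size steps. Group means fell at both steps in 20.6% of all probe sets, and choosing genes by the 2 ends favours such falls. Its brightest probe set read 780.7 and 602.9 in small, 307.0 and 574.9 in medium, and 227.1 and 234.2 in large granulosa. No 2 sizes overlapped, although medium replicate 2 lay close to the small arrays. The model gave a log2 change of -1.51 ± 0.37 for large against small, -0.68 ± 0.37 for medium against small and -0.82 ± 0.37 for large against medium. The second probe set, whose value put RASL11B among the chosen genes, read 238.8 and 217.2 in small, 49.8 and 176.8 in medium, and 24.8 and 33.2 in large granulosa. Its order of sizes was the same and its change larger, at -2.44 ± 0.45 (5.44-fold lower) for large against small. Both probe sets had covered a like share of the change at the medium size, 45.4% and 45.6%.

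DDO was also lower at each of the 2 steps and was dim in large granulosa. Its single probe set read 128.6 and 100.8 in small, 16.3 and 54.3 in medium, and 3.6 and 14.1 in large granulosa. The 3 sizes did not overlap, and the large arrays lay below the signal of 22.5 that served as the filter. Set at that filter signal, large would still be at least 5.06-fold lower than small. The log2 change was -2.42 ± 0.44 for large against small, and it depended on the added constant, with -3.78 for log2(signal + 1) and -1.29 for log2(signal + 64). It was -1.45 ± 0.44 for medium against small and -0.97 ± 0.44 for large against medium. The change at the medium size was 59.8% of that between the ends.

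The medium size was also set against the midpoint of small and large granulosa. This uses the arrays that chose the genes, so it is a description. RPRM lay below the midpoint by -1.22 ± 0.36, MEST by -1.51 ± 0.53, LTF by -0.76 ± 0.40 and DDO by -0.24 ± 0.38, and RASL11B lay at 0.07 ± 0.32. On the second probe set of MEST the sign was opposite, at 0.31.

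The medium replicates differed by the same order in all 5 genes. Replicate 2 was higher than replicate 1 for 5 of 5 in medium granulosa, by a median log2 difference of 1.06, whereas 48.2% of all probe sets were higher on it. In small granulosa replicate 1 was higher for 5 of 5, by 0.36, against 52.3% of all. Large theca also had replicate 1 higher for 5 of 5, with a median of -0.54 for replicate 2 minus replicate 1, against 52.5% of all. The other groups were split. The 2 granulosa steps move with the granulosa pools. Without granulosa medium replicate 1 the change of LTF was -1.75 for medium against small and -1.54 for large against medium. Without replicate 2 it was -3.06 and -0.23. Fibroblast and stroma markers summed to 9561 on medium replicate 1 and 2092 on replicate 2, and immune markers to 1721 and 849. Their part in the order of the replicates was not tested.

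**Figure D3:**
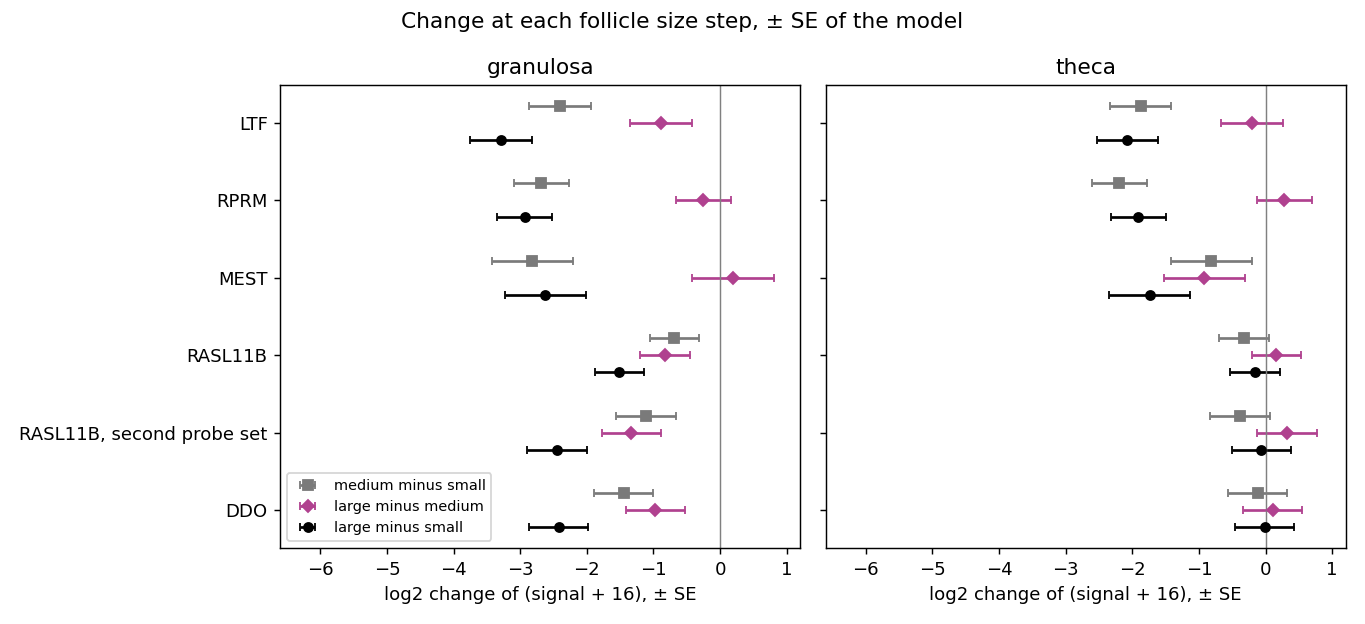
Log2 change of (signal + 16) at each size step in granulosa (left) and theca (right) for the brightest probe set of each gene and the second of RASL11B, with bars for the SE of the model. In granulosa the large minus small values run from -3.29 to -1.51, and in theca LTF, RPRM and MEST lie near -2 while RASL11B and DDO lie near 0.

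Differences between theca sizes did not enter the choice of the genes and were tested, although the spread of the model, which did, was estimated over all 12 arrays. LTF read 326.3 and 226.6 in small, 75.5 and 51.5 in medium, and 78.6 and 33.5 in large theca. Both small arrays lay above the other 4. The log2 change was -2.07 ± 0.46 for large against small (adjusted p = 0.157, limma) and -1.87 ± 0.46 for medium against small (adjusted p = 0.799). Without theca small replicate 2, which leaves the array with shortened RNA alone in its group, large against small was called at -2.32 (adjusted p = 0.0414, limma) among 613 probe sets. Without that array with shortened RNA it was -1.83 (adjusted p = 0.558), and over the arrays left out the adjusted p ran up to 0.973. Medium against small was -1.63 without that array. With the spread of the theca arrays alone the adjusted p of large against small was 0.279 for both LTF and RPRM and 0.35 for MEST.

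RPRM read 45.7 and 111.0 in small, 0.7 and 6.4 in medium, and 8.1 and 6.9 in large theca. Small theca was thus the only theca size above the filter signal. The log2 change was -1.91 ± 0.41 for large against small (adjusted p = 0.155) and -2.19 ± 0.41 for medium against small (adjusted p = 0.43). Without theca small replicate 1 these were -2.43 and -2.72. Set at the filter signal, medium and large theca would be at least 3.17-fold lower than small theca. Over the added constants the change ran from -3.09 to -0.95 for large against small and from -4.35 to -1.04 for medium against small.

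MEST read 236.9 and 996.0 in small, 208.8 and 350.7 in medium, and 167.3 and 109.7 in large theca. Large lay below small on every array, by -1.74 ± 0.61 (adjusted p = 0.367). The difference was smaller on the second probe set, at -0.40 ± 0.31 (adjusted p = 0.687), and on the third, at -0.35 ± 0.70 with overlapping arrays (adjusted p = 0.898). The small replicates differed widely, and replicate 1 is the array with shortened RNA. On the third probe set of MEST that array read 0.6, against 141.9 on replicate 2, and on the brightest probe set large against small was -2.74 without replicate 1 and -0.74 without replicate 2. Medium against small was 0.18 without replicate 2, against -0.82 ± 0.61 on all arrays.

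RASL11B and DDO differed little between the sizes of theca. The brightest probe set of RASL11B read 507.3 and 366.5 in small, 348.7 and 334.5 in medium, and 496.1 and 296.3 in large theca. Its change of large against small was -0.16 ± 0.37, with a 95% interval of -0.96 to 0.64 (adjusted p = 0.912). DDO read 21.0 and 65.5 in small, 27.9 and 42.2 in medium, and 38.9 and 37.8 in large theca. Its change was -0.01 ± 0.44, with a 95% interval of -0.96 to 0.93 (adjusted p = 0.993). The spread between pools allows a change of up to about that size in either direction.

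In theca limma called 0 of the 5 genes in any size step. For large against small 3 of 5 had an unadjusted p under 0.05, namely LTF, RPRM and MEST on its brightest probe set, against 1765 of all 17236 probe sets (10.2%). Over all probe sets 6 were called there (0.0348%), none of them lower. These 6 became 613 without theca small replicate 2 and 0 without theca large replicate 2. LTF, RPRM and MEST had large arrays that lay below the small ones without overlap, a pattern found in 23.7% of all probe sets. For medium against small 2 of 5 had an unadjusted p under 0.05, LTF and RPRM, against 6.2% of all probe sets. The arrays of LTF, RPRM and RASL11B did not overlap there, as for 20.1% of all probe sets, and 2 of all probe sets were called (0.0116%). For large against medium it was 0 of 5, and 0 of all probe sets were called (0%).

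Granulosa markers are given beside the theca values, since the brightest probe sets of all 5 genes had their highest signals in small granulosa. The 15 granulosa markers on the array summed to 13163 and 15779 in small, 22873 and 14460 in medium, and 24025 and 33183 in large theca. The sums of small and medium theca overlapped and both large sums lay above those of small theca, where LTF, RPRM and MEST had their highest theca signals. In large against small theca 2 of the 15 were called higher, CYP19A1 (5.70) and INHBA (4.54), and 0 lower. Both also had higher values in large than in small granulosa, by 4.15 (called) and 1.79 (not called), so the sums do not measure granulosa RNA alone. The 6 markers that separated the layers went both ways in large against small theca. They gave -1.36 for KRT18, -0.84 for IHH, -0.36 for CDH2, 0.08 for KRT8, 1.51 for CRABP2 and 1.61 for NR5A2. KRT18 went with the 3 genes, at 292.5 and 221.4 in small, 82.9 and 75.9 in medium, and 137.6 and 56.7 in large theca. The part of granulosa RNA in the theca values was not tested.

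Between the layers, medium follicles were tested, since the means of neither medium group entered the choice of the genes, although the spread over all 12 arrays did. In a fit of the 4 medium arrays alone, added after the data were seen, the same 2 genes were called, RPRM with an adjusted p of 0.0162 and LTF with 0.0389 (limma). RPRM was higher in granulosa, with 38.1 and 97.1 in medium granulosa against 0.7 and 6.4 in medium theca. The difference was 2.02 ± 0.41 (adjusted p = 0.00941, limma). Medium theca lay below the filter signal, and set at that signal it would be at least 2.70-fold lower. LTF was higher in granulosa as well, with 154.8 and 407.8 in medium granulosa against 75.5 and 51.5 in medium theca. The difference was 1.78 ± 0.46, or 3.42-fold (adjusted p = 0.0367). For both genes the lower granulosa array lay above the higher theca array, as for 30.4% of all probe sets. With these, 2 of the 5 genes were called, both higher in granulosa, whereas 308 of all probe sets were called higher (1.79%) and 1034 in either direction (6%).

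These calls did not hold under every setting. Without granulosa medium replicate 2 both were lost, at 1.48 for RPRM (adjusted p = 0.13) and 1.12 for LTF (adjusted p = 0.33), and without theca medium replicate 1 likewise (adjusted p = 0.0971 and 0.0997). Without theca medium replicate 2 the call of LTF was lost (adjusted p = 0.31) and that of RPRM was not (0.0468). The calls over all probe sets were 427, 502 and 360 in these fits. RPRM was 4.13 with log2(signal + 1) and 0.93 with log2(signal + 64), where its adjusted p was 0.0763. Over the alternatives that kept all arrays of this contrast, LTF had adjusted p-values from 0.023 to 0.0943.

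MEST, RASL11B and DDO were not called between the layers of medium follicles. MEST differed by -0.32 ± 0.61 (95% interval -1.63 to 0.99, adjusted p = 0.846), RASL11B by 0.29 ± 0.37 (-0.51 to 1.09, adjusted p = 0.757) and DDO by -0.09 ± 0.44 (-1.03 to 0.86, adjusted p = 0.952). Granulosa and theca arrays overlapped for all 3.

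In small and large follicles the layers were compared without a test, since those granulosa arrays chose the genes. In small follicles the brightest probe sets of all 5 were higher in granulosa than in theca, by 2.50 for RPRM, 2.30 for LTF, 1.68 for MEST, 1.24 for DDO and 0.65 for RASL11B, and no arrays overlapped (25.9% of all probe sets). Without the 2 unusual arrays these were 1.98, 2.55, 0.68, 0.67 and 0.88 in the same order of genes. In large follicles RPRM (1.48) and LTF (1.09) were higher in granulosa, with no overlap (32.7% of all probe sets). RASL11B (-0.70) and DDO (-1.16) were lower in large granulosa than in large theca, also with no overlap (22.5%). DDO read 3.6 and 14.1 in large granulosa against 38.9 and 37.8 in large theca. RASL11B read 227.1 and 234.2 in large granulosa against 496.1 and 296.3 in large theca. MEST overlapped between the layers of large follicles, at 0.79 ± 0.61, and was 0.01 without the 2 unusual arrays. Its second probe set was lower in granulosa than in theca without overlap, by -0.89 ± 0.31 in large and -0.39 ± 0.31 in small follicles.

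Immune cell transcripts were higher in large granulosa, where the 5 genes were lower. The 16 immune markers on the array summed to 17766 and 5372 in large granulosa against 695 and 826 in small granulosa. All 16 were called higher in large granulosa, against 1.82% of all probe sets. Medium granulosa had sums of 1721 and 849, and 15 of the 16 were higher there than in small granulosa (median 0.44). Of the 16, 0 were called at that step, where 1 of all 17236 probe sets was called (0.0058%), so few calls could be seen. At the medium size the brightest probe sets of LTF, RPRM and MEST had reached 73.1% to 107% of their difference on all arrays. The shares were lower for DDO (59.8%), the 2 probe sets of RASL11B (45.4% and 45.6%) and the second probe set of MEST (15.8%). The 15 granulosa markers summed to 44774 and 32051 in large granulosa against 31320 and 35902 in small granulosa, with 1 called higher (CYP19A1, 4.15), 1 called lower (KRT18, -2.16) and a median change of -0.19. The granulosa marker sums of the sizes overlapped, while the 5 genes differed by a median of -2.62. Of the large arrays, replicate 2 held the smaller immune sum. Without replicate 1 the change of large against small was -2.98 for LTF, -3.0 for RPRM, -1.49 for RASL11B and -2.11 for DDO. The part of immune cells in the signals was not tested.

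**Figure D4:**
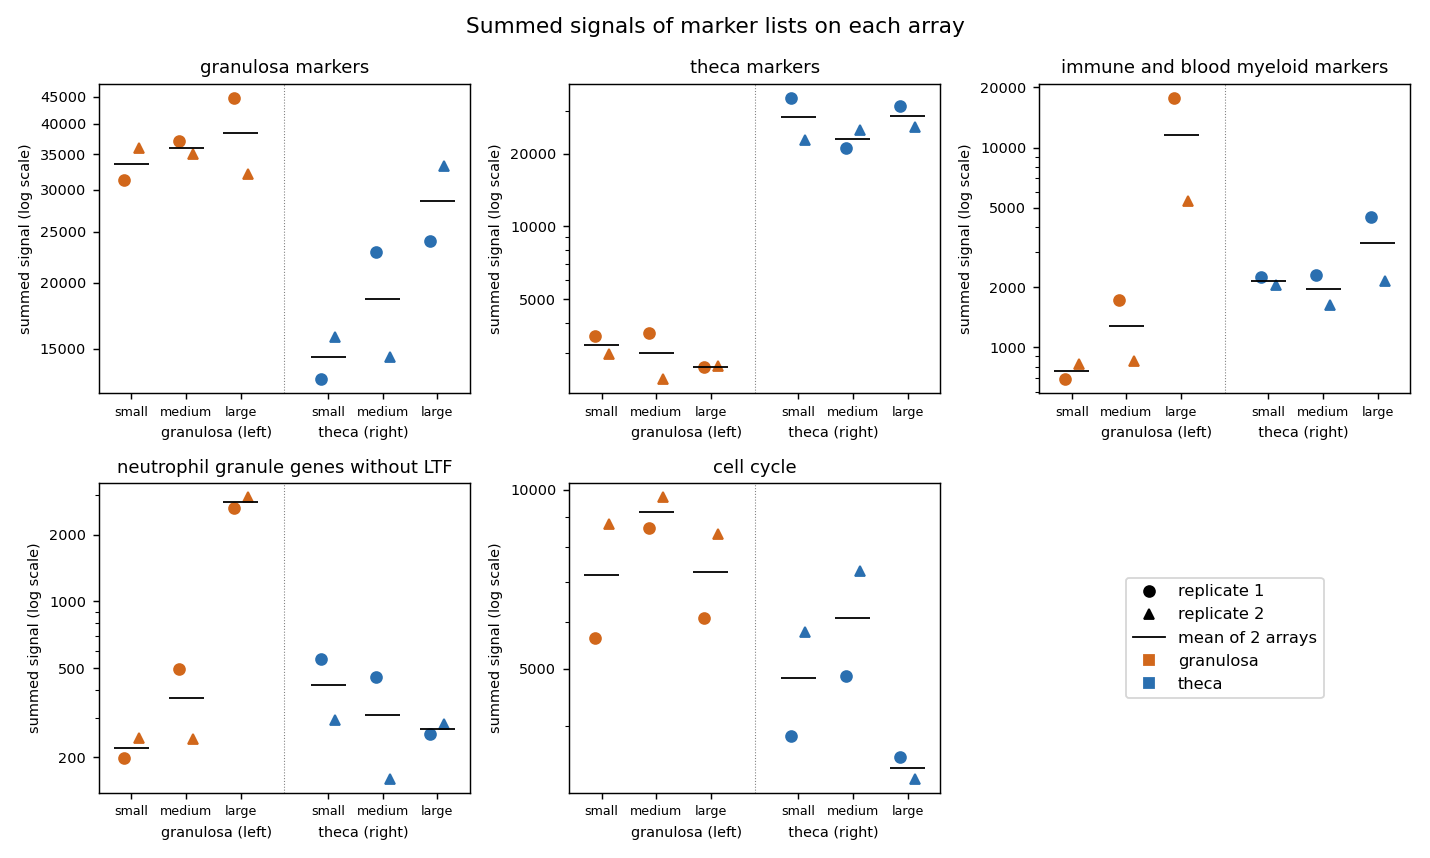
Summed signals (log scale) of 5 lists of marker genes on each array by layer and size, with a point per array and a line at the mean of 2. The sums of the immune markers and of the neutrophil granule gene list were highest in large granulosa (17766 and 5372, and 2640 and 2935), where the 5 genes were lower than in small granulosa.

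Genes of the pathways around each of the 5 were counted in the same comparison, where 2.22% of all tested probe sets were called in either direction, so few calls could be seen in lists of this size. Of 15 other iron handling genes tested, such as transferrin receptors and ferritins, 0 were called by limma in large against small granulosa, with a median of 0.39. Of 17 other genes of p53 and of arrest before mitosis 0 were called (median 0.05), and of 22 cell cycle genes 0 (median 0.03). Of 23 other imprinted genes 0 were called (median -0.20), of 21 other Ras-like GTPases 0 (median 0.19), of 12 other genes of D-amino acid and aspartate metabolism 0 (median 0.14) and of 17 other peroxisomal genes 0 (median -0.14). At an unadjusted p under 0.05 there were 2482 of all probe sets.

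Between the layers of medium follicles some genes of these lists were called. The imprinted growth factor gene IGF2 was lower in granulosa than in theca by -4.01 (adjusted p = 3.01e-05, limma), and DCN, a matrix proteoglycan imprinted in the mouse placenta, by -3.59 (adjusted p = 0.000355). In all 5 of 23 other imprinted genes were called lower, against 4.21% of all probe sets, and 0 higher. CYBRD1, which reduces iron at the cell surface, gave -2.36 and CP, the copper oxidase ceruloplasmin, -1.69. Among the Ras-like GTPases RRAD was higher (2.25) and REM1 lower (-2.40), and RASL11B lay between them. ASS1, which joins citrulline to aspartate, was lower (-3.13). Fibroblast markers, which include DCN, summed to 9561 and 2092 in medium granulosa against 31445 and 32021 in medium theca, and their part in these differences was not tested.

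Over the 12 arrays the Pearson r of log2 signals is given as a description, since the arrays share their scaling and all 5 genes were chosen to be high in small and low in large granulosa, which alone raises r among them. It was 0.946 between LTF and RPRM, 0.834 between RPRM and MEST, 0.805 between RASL11B and DDO, and lowest between MEST and RASL11B, at 0.568. The genes most like LTF were PC, the mitochondrial pyruvate carboxylase (0.949), RPRM (0.946) and HAPLN3, a link protein of hyaluronan (0.940). PC read 258.9 and 366.7 in small, 78.6 and 194.3 in medium, and 95.9 and 73.4 in large granulosa. RPRM was most like DPP6 (0.949), NDUFAB1 (0.946) and LTF (0.946). MEST was most like the zinc transporter gene SLC30A2 (0.901), ECRG4 (0.894) and the kinase gene WNK2 (0.878). ECRG4 read 1716 and 3250 in small, 218.8 and 1314 in medium, and 555.8 and 313.4 in large granulosa, and 443.7 and 1438 in small theca.

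RASL11B was most like the tetraspanin gene TSPAN5 (0.946), PDCD7 (0.919) and CTNNBL1 (0.910). TSPAN5 read 459.9 and 372.3 in small, 111.1 and 370.6 in medium, and 124.9 and 148.9 in large granulosa. Its medium replicates differed in the same direction as those of RASL11B. DDO was most like the second probe set of RASL11B (0.928), PDCD7 (0.894) and MED26 (0.888). In the RefSeq gene table of assembly ARS-UCD2.0 no pair of the 5 genes were neighbours. The flanking genes with a tested probe set did not follow them, with CEP41 beside MEST at 0.25 ± 0.35 and USP46 and SCFD2 beside RASL11B at -0.21 ± 0.38 and 0.49 ± 0.41 for large against small granulosa.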

How the data were processed

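The authors deposited 1 linear signal intensity for every probe set on each array, and the software is not given in the sources used here. They had scaled the intensity values, since the 2% trimmed mean was 125.03 to 125.04 on every array. Groups came from the sample titles, and 0 columns stayed unmapped. Of 24128 probe sets, 112 controls were left out; 13292 had 1 symbol, 86 several and 10638 none here. Signals became log2(signal + 16). Testing was limited to the 17236 probe sets with a group mean (log2) above a signal of 22.5, the 40th percentile over all arrays, in 1 or more groups. A limma model (version 3.58.1, R 4.3.3) with a mean per group over all 12 arrays left 6 residual and 7.92 prior degrees of freedom. Calls had a Benjamini-Hochberg adjusted p under 0.05 within a contrast. An exact permutation test of 2 against 2 arrays cannot go below p = 0.333. The brightest probe set stood for a gene. The genes named were the 5 genes, the 3 most correlated with each, and called list genes, up to 4 per list in large against small granulosa and 2 elsewhere; S100A8, CAMP, ELANE, CATHL5, CYP17A1, CYP19A1 in the marker check and the flanking genes were added after their values were seen. Members, lists and tests were chosen with earlier results of these data known. Data of 17236 probe sets were simulated for large against small theca, with noise that was independent between probe sets. There 5 of 50 changes of 1 (log2), 31 of 50 of 2 and 46 of 50 of 4 were recovered. Recovery in the deposited data can be lower. Alternatives changed pseudocount, scaling, filter, variance trend, block, arrays and probe set. The contrast with the midpoint, planned as a test, is given as a description. No sequences were used here. Figures used matplotlib 3.10.9.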

Additional observations from a re-analysis of the deposited data

Results flagged for a closer look

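For RASL11B and DDO the order of the layers differed with follicle size, as every array of granulosa lay above theca in small follicles and below it in large ones. For DDO the granulosa minus theca difference was -1.16 in large and 1.24 in small follicles, a shift of -2.40. For RASL11B it was -0.70 in large and 0.65 in small follicles on the brightest probe set, a shift of -1.35, and -0.93 and 1.45 on the second, a shift of -2.38. That second probe set of RASL11B also moved in opposite directions between large and medium follicles on every array, by -1.33 in granulosa and 0.32 in theca, a gap of -1.65. These differences between layers were not tested, since the granulosa arrays in them chose the genes.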

How the results depend on the processing

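With 2 pools per group, precision is limited by the number of arrays, and RPRM and DDO lie at background in some groups. Of the 5 genes, 2 were called between medium granulosa and medium theca, against 1 with log2(signal + 1), quantile normalization or no filter on low values, 0 with log2(signal + 64), and 0 to 2 with each array left out. In large against small theca 0 were called, and 0 to 1 with each array left out. The median over the 5 genes for large against small granulosa was -3.26 with log2(signal + 1) and -2.98 to -2.43 with each array left out. It ran from -3.06 to -1.75 for medium against small and from -1.26 to -0.23 for large against medium granulosa. Signs turned as follows, and the cause was not tested. For medium granulosa against medium theca, with each array left out, DDO ran from -0.65 to 0.48, MEST from -0.74 to 0.10 and RASL11B from -0.15 to 0.72, with the ends set by the medium granulosa arrays; without theca medium replicate 2 DDO was 0.12 and MEST 0.03. Against the midpoint DDO ran from -0.80 to 0.32 and RASL11B from -0.37 to 0.51, with -0.02 without granulosa small replicate 2, and MEST was 0.31 on probe set 2. For large against small theca DDO ran from -0.58 to 0.55 with the small arrays left out, and was 0.04 with log2(signal + 1), 0.05 with quantile normalization and 0.03 with median centring. RASL11B ran from -0.52 to 0.19 there and was 0.06 without theca small replicate 1, or without both unusual arrays. For medium against small theca DDO ran from -0.69 to 0.45, with 0.08 without theca medium replicate 1, and MEST from -1.82 to 0.18, with 0.56 on probe set 3. For large against medium theca LTF ran from -0.67 to 0.27, with 0.02 without theca medium replicate 1, RASL11B from -0.20 to 0.52, and DDO was -0.10 without theca medium replicate 1. For large against medium granulosa RPRM ran from -0.78 to 0.28 and MEST from -0.59 to 0.98. There MEST was -0.76 on probe set 2 and -0.14 on probe set 3. Replicate differences correlated at 0.14 to 0.267 between theca sizes, 0.073 to 0.402 between granulosa sizes and -0.335 to 0.142 across layers, so the numbers were not taken as pairs across all samples. With the replicate block 2 genes were called between the layers of medium follicles, RPRM (adjusted p = 0.00818, limma) and LTF (0.0456). With a replicate block within layers, added after the data were seen, these were 0.0105 and 0.023, 0 genes were called between theca sizes (LTF 0.111 for large against small), and 0 probe sets in all for medium against small theca, against 2.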
